A study of Oryza sativa with 13 samples.

Results

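The DNA methylation peaks of rice endosperm at 2 and 6 days after pollination (DAP) were compared, an early stage of the tissue against the stage of grain filling. Both samples came from the japonica cultivar ZH-11 (Zhonghua11), grown in a phytotron, with the endosperm picked by hand under a dissecting scope and no treatment named. All peaks of the 2 deposited lists were members, 32986 at 2 DAP and 36871 at 6 DAP, which made 69857 of the 302642 peaks in the 7 lists analysed. The series has 13 samples of embryo and endosperm, and 6 samples of the indica cultivar 93-11 were not analysed here. Each stage was 1 library, with no replicate, so no difference between the stages could be tested and no p-value is given. Intervals are exact Clopper-Pearson intervals at 95%. They treat peaks as independent and cover counting error only, not the spread between plants or libraries. PCR reads without molecular identifiers are not independent molecules.

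Endosperm arises when a sperm cell fertilises the central cell of the embryo sac, so it holds maternal and paternal genomes in unequal dosage. In cereals its nuclei first divide without walls, then the tissue cellularises and fills with starch and storage protein. Plant cytosine methylation lies mostly in transposons and other repeats and in the bodies of some genes, and it is kept up by maintenance methyltransferases and by small-RNA-directed methylation. In the central cell, DNA glycosylases remove methylation from part of the maternal genome before fertilisation, and endosperm is known for lower methylation than embryo at many of those sites. The assay here, methylated DNA immunoprecipitation with sequencing (MeDIP-seq), captures fragments with an antibody to methylcytosine. It shows where methylated DNA is enriched, over stretches of many bases, and gives neither the level at single cytosines nor their sequence context. In bulk tissue, methylation in fewer cells and less methylation in each cell cannot be told apart.

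At 6 DAP endosperm had more peaks than at 2 DAP, and they were shorter, while the genome length under peaks was nearly equal. The 36871 peaks at 6 DAP were 1.12 times the 32986 at 2 DAP. They covered 47.3 Mb against 46.3 Mb, a ratio of 1.02. The median peak length was 1110 bp at 2 DAP, with quartiles of 846 and 1612 bp, and 996 bp at 6 DAP, with quartiles of 751 and 1482 bp. A tag is 1 aligned read, and tags in peaks per 1000000 filtered tags (RPM) put the libraries on 1 scale. Depth was 6833917 filtered tags at 2 DAP and 7302523 at 6 DAP, a ratio of 1.07, and 53.0% and 57.9% of those tags lay in peaks. Depth and stage cannot be told apart with 1 library each. When the 6 DAP list was limited to its 32986 highest-scoring peaks, the covered-length ratio turned to 0.9496, while the 6 DAP median, 1041 bp, stayed under that of 2 DAP.

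Most methylation peaks of early endosperm were still listed at grain filling. Of the 2 DAP peaks, 28360 (86.0%, 95% interval 85.6 to 86.3) overlapped a 6 DAP peak by at least 1 bp and are called kept. The other 4626 (14.0%, 13.7 to 14.4) had no 6 DAP peak and are called lost. Of the 6 DAP peaks, 7804 (21.2%, 20.7 to 21.6) had no 2 DAP peak and are called gained. Gained peaks outnumbered lost peaks by a ratio of 1.69. That direction rests on the longer 6 DAP list, since equal numbers of peaks gave a ratio of 0.922. By bases, 36.2 Mb lay under peaks at both stages, which was 78.2% of the 2 DAP length and 76.6% of the 6 DAP length. Lost peaks held 4.72 Mb and gained peaks 7.38 Mb. A further 5.37 Mb of 2 DAP peak length and 3.71 Mb of 6 DAP peak length were parts of kept peaks that reached beyond their partner. Among the lists of other stages the same 2 DAP peaks were found less often, 80.5% at 3 DAP and 80.9% at 9 DAP. The embryo lists, though longer, held 73.8% to 76.5% of them, below every endosperm list, which goes with the labelled tissue.

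Lost and gained peaks were mostly weak peaks, and in the lists as deposited weak peaks were gained more often than they were lost. The deposited score of a peak is its p-value as -10 log10(p), with 50 as the limit of the lists. Between 50 and 100, 28.0% (27.2 to 28.8) of 2 DAP peaks were lost and 45.6% (44.8 to 46.5) of 6 DAP peaks were gained. Between 100 and 200 the shares were 8.68% and 14.2%. The order turned among stronger peaks. Between 300 and 500, 39 of 3548 peaks at 2 DAP were lost (1.10%, 0.783 to 1.4996) and 14 of 4413 at 6 DAP were gained (0.317%, 0.174 to 0.532). Equal numbers of highest-scoring peaks left 6 DAP peaks from a score of 61.2 upward. Over all scores 18.4% were then lost and 17.0% gained. With scores of 100 or more in both lists the shares were 15.9% and 25.8%. Shares by score class were not recomputed for these settings. Peaks under a score of 100 made up 75.1% of the lost and 76.7% of the gained peaks. They were 37.6% of all 2 DAP peaks and 35.6% of all 6 DAP peaks. The median peak held 47 tags if lost and 85 if kept at 2 DAP, and 45 if gained and 88 if kept at 6 DAP. The files list tags only inside peaks, so the tag number of a lost peak at 6 DAP is not known. The smallest peaks listed held 23 and 24 tags.

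**Figure D1:**
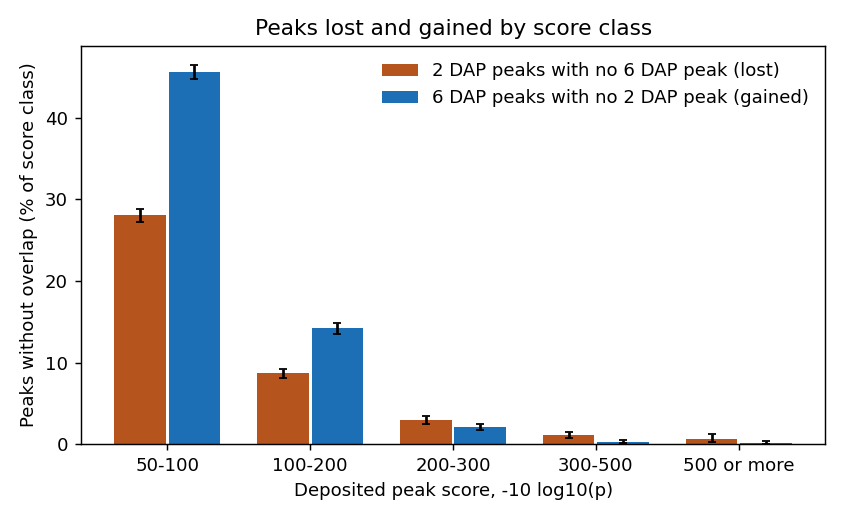
Share of peaks without an overlapping peak in the other list, in percent of each score class, with exact 95% intervals for counting error as bars. In the lists as deposited, the gained share (45.6%) is above the lost share (28.0%) in the weakest class, and the order is turned from a score of 200 upward.

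Lost and gained peaks were also shorter than kept ones. Median lengths were 847.5 bp for lost and 1170 bp for kept peaks at 2 DAP, and 756 bp for gained and 1082 bp for kept peaks at 6 DAP. Under 700 bp, 33.3% (31.7 to 34.8) of 2 DAP peaks were lost and 44.3% (43.1 to 45.4) of 6 DAP peaks were gained. The lost share was lowest at 2000 to 3000 bp, 3.42% (2.82 to 4.11), and was 5.12% (4.202 to 6.18) for peaks of 3 kb or more. The gained share was 8.09% at 1500 to 2000 bp and 9.25% (7.99 to 10.6) at 3 kb or more. At 3 kb or more, 103 peaks were lost and 178 were gained.

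**Figure D2:**
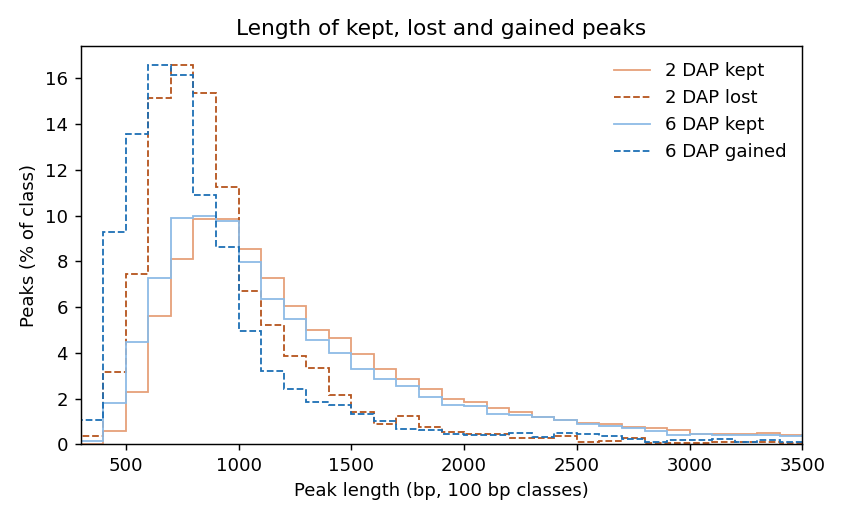
Length of kept, lost and gained peaks in classes of 100 bp, as percent of each of the 4 groups of peaks. Lost and gained peaks are shifted to shorter lengths, with medians of 847.5 and 756 bp against 1170 and 1082 bp for kept peaks.

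Kept peaks were a little narrower at 6 DAP, while the direction of their tag density depended on the scaling. There were 26223 matched pairs in which a 2 DAP peak and a 6 DAP peak overlapped each other and no further peak. In these pairs the median length was 1147 bp at 2 DAP and 1081 bp at 6 DAP. The 6 DAP peak was shorter in 58.8% and longer in 40.98% of pairs, with a median difference of -39 bp. Tags per kb of peak were higher at 6 DAP in 64.5% of pairs, by a median log2 ratio of 0.11 on the RPM per kb scale. Scaled to tags in peaks they were higher in 46.9% of pairs, with a median of -0.02. Peak summits, the positions of highest tag density, lay a median of 51 bp apart, and 68.4% were within 100 bp. Among pairs of 3 kb or more at 2 DAP the median distance was 123 bp, and 36.4% lay more than 500 bp apart, against 0.911% of pairs under 1000 bp. Peak length bounds the distance that summits of overlapping peaks can have. The median peak was 814 bp long at 2 DAP in the short pairs and 3810.5 bp in the long ones. The median distance was 35 bp in short pairs, so relative to length the median was not larger in long ones. The upper quartile was 73 bp in short and 947 bp in long pairs, larger in long pairs even relative to length.

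Wide 2 DAP peaks were more often divided at 6 DAP than the reverse. Of all 2 DAP peaks, 1210 (3.67%, 3.47 to 3.88) overlapped 2 or more 6 DAP peaks, and 534 6 DAP peaks (1.45%, 1.33 to 1.58) overlapped 2 or more of the 2 DAP peaks. Among peaks of 3 kb or more the counts were 307 of 2010 at 2 DAP (15.3%, 13.7 to 16.9) and 126 of 1924 at 6 DAP (6.55%, 5.48 to 7.75). The peaks of 3 kb or more covered 8.51 Mb at 2 DAP and 8.003 Mb at 6 DAP. The 2 DAP share stayed the higher one with equal numbers of peaks, at 2.94% and 1.58%.

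When touching and overlapping peaks of both lists were merged, 40250 regions resulted. Of these, 27822 (69.1%) held peaks of both stages, with a median length of 1291 bp and 45.3 Mb in all. A further 4626 were of 2 DAP only and 7802 of 6 DAP only. Tag levels in the regions of both stages were alike for most. The median RPM was 12.7 at 2 DAP and 12.6 at 6 DAP, and the median log2 ratio of 6 over 2 DAP was 0.06, with quartiles of -0.22 and 0.29. At 6 DAP the level was at least 2-fold higher in 371 regions (1.33%) and at least 2-fold lower in 761 (2.74%). With tags scaled to 1000000 tags in peaks the median log2 ratio shifted to -0.07 and the counts were 213 higher and 1105 lower, so the balance of small differences depends on the scaling while lower regions outnumbered higher ones on each.

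The 2-fold differences in tags went with differences in the width of the peaks. Tags were counted only inside peaks, so a wider peak holds more tags by construction, and this link is a description only. In the 371 regions higher at 6 DAP the median log2 ratio was 1.16 for RPM and 0.998 for covered length. The 761 regions lower at 6 DAP had medians of -1.23 and -0.97. Covered length itself differed at least 2-fold in the same direction in 185 (49.9%) of the higher and 365 (48.0%) of the lower regions. Measured as RPM per kb covered, only 42 regions were 2-fold higher and 52 were 2-fold lower. The median length of the higher regions was 2056 bp and of the lower ones 1567 bp, against 1274 bp for the regions within 2-fold. Of regions of 3 kb or more, 4.16% were 2-fold higher and 2.77% lower at 6 DAP, whereas from 1000 to 2000 bp the shares were 1.21% and 3.72%.

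**Figure D3:**
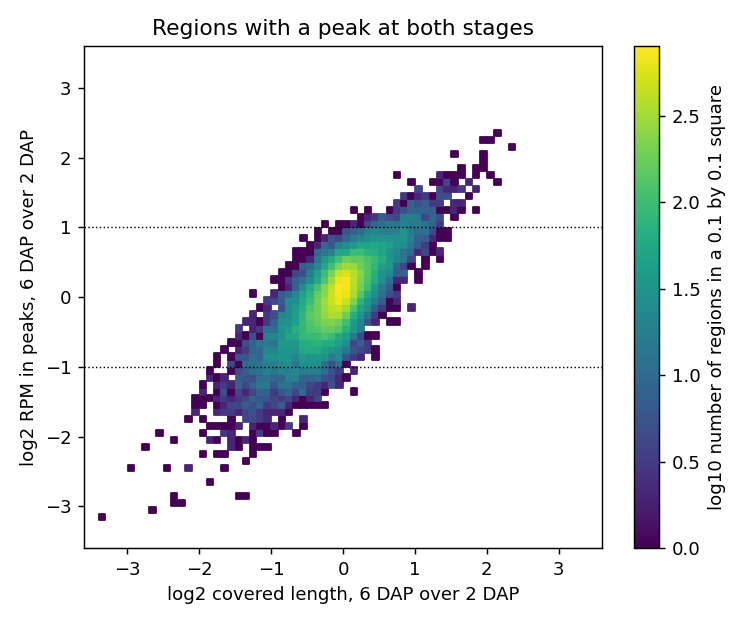
The 27822 regions with a peak at both stages, by the log2 ratio of covered length (x) and of RPM in peaks (y), 6 DAP over 2 DAP. Colour gives the log10 number of regions in each square and dotted lines mark 2-fold. The largest differences in tags lie where the covered length differs as well, from -3.11 to 2.34 on the log2 RPM scale. Tags are counted only inside peaks, so both ratios are linked by construction.

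The regions with the largest ratios, among those with 100 or more tags in the 2 libraries, were long stretches of which a short part had a peak at the other stage. Positions are as deposited, and since their genome build was not given in the sources used here, no gene or transposon is named for them. The largest lay on chr5:12372620-12378421, with 91 tags (13.3 RPM) at 2 DAP and 494 tags (67.6 RPM) at 6 DAP, a log2 ratio of 2.34. Its level was 64.1 RPM at 3 DAP and 57.2 at 9 DAP in endosperm, so among the 4 endosperm libraries the one at 2 DAP was lowest. The choice by ratio favours a low 2 DAP level, so this is a description only. In embryo it was 26.7, 19.9 and 17.8 RPM at 3, 6 and 9 DAP. The 2 DAP peak covered 1281 bp of the 5802 bp. A region on chr12:10517146-10520820 was also lowest at 2 DAP in endosperm, with 7.02 RPM at 2 DAP and 36.3, 33.8 and 34.0 RPM at 3, 6 and 9 DAP. On chr2:15121168-15126523 the values were 15.8 and 74.9 RPM at 2 and 6 DAP, with 52.0 at 3 DAP and no listed peak at 9 DAP in endosperm. On chr1:14719571-14725518 they were 21.2 and 96.95, with 58.9 at 3 DAP and again no listed peak at 9 DAP. On chr6:19939380-19942062 they were 5.27 and 21.8, with no listed peak at 3 DAP and 13.3 RPM at 9 DAP.

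The lowest ratios belonged to regions high at 2 DAP, which the choice by ratio favours. On chr5:10937784-10945426 there were 922 tags (134.9 RPM) at 2 DAP and 114 tags (15.6 RPM) at 6 DAP, a log2 ratio of -3.11. The 6 DAP peak covered 771 of 7643 bp, and in endosperm the region had 53.4 RPM at 3 DAP and no listed peak at 9 DAP. The region chr5:24816456-24820299 had 48.6 and 5.75 RPM, chr3:26569619-26573200 had 38.05 and 4.79, and chr9:4705253-4711490 had 81.2 and 10.8. The shortest of the 5, on chr10:16817757-16819465, had 31.2 RPM at 2 DAP with a score of 670.5 and 4.38 RPM at 6 DAP with a score of 61.4. Outside these stages it had a peak in 1 of 5 lists, endosperm at 9 DAP, with 4.02 RPM. Of the 5 lowest regions, 3 had a peak in 1 of the 5 other libraries, whereas of the 5 highest this was so for 1.

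Over all 2-fold regions the other endosperm libraries had median levels nearer to 6 DAP than to 2 DAP. Where the level was 2-fold higher at 6 DAP, the median was 8.49 RPM at 2 DAP and 21.1 at 6 DAP, and in the libraries with a peak it was 19.4 at 3 DAP and 18.6 at 9 DAP in endosperm. Peaks were listed in 93.8% and 93.5% of these regions at 3 and 9 DAP. The embryo medians, 14.4 to 15.5 RPM, lay between those of 2 and 6 DAP. Embryo peaks covered 48.2% to 56.8% of such a region on average, near the 47.0% at 2 DAP and below the 98.5% at 6 DAP. Where it was 2-fold lower, the medians were 17.1 RPM at 2 DAP and 6.71 at 6 DAP, and 8.12 and 8.44 RPM at 3 and 9 DAP. There the later lists held a peak in 61.5% and 66.5% of regions, below the 89.4% and 89.8% of regions within 2-fold. The embryo medians in the lower regions, 8.50 to 8.81 RPM, were also nearer to 6 DAP, with peaks in 55.6% to 59.7% of regions. In the lower regions, levels nearer to 6 DAP were thus not particular to endosperm. These levels use the tags of every peak that overlaps a region, and regions without a peak are left out of the medians.

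The 5 lists that took no part in naming peaks lost or gained were then searched for them. Fewer lost peaks were found in later endosperm than in embryo. The gap was smaller when a score limit changed which peaks counted as lost. Of the 4626 lost peaks, 31.5% (30.2 to 32.9) had a peak in endosperm at 3 DAP and 30.7% (29.3 to 32.0) at 9 DAP. In embryo 39.1%, 40.1% and 40.7% had a peak at 3, 6 and 9 DAP. With both compared lists limited to scores of 100 or more, a 2 DAP peak also counted as lost if its 6 DAP peak scored under 100. This gave 3270 regions of 2 DAP only. Lost peaks were then found in 50.7% and 52.7% at 3 and 9 DAP in endosperm and in 53.1% in embryo at 6 DAP. As first defined, the lost peaks scoring 100 to 200 were found in 25.4% and 27.0% in endosperm and 34.1% to 37.1% in embryo. Gained peaks had the opposite order, with 64.0% (62.9 to 65.1) found in endosperm at 3 DAP and 60.9% (59.9 to 62.0) at 9 DAP, and 53.8% to 56.1% in the embryo lists. Kept 2 DAP peaks were found in 88.5% and 89.1% of cases in endosperm at 3 and 9 DAP and in 79.2% to 82.4% in embryo. The embryo lists are longer, 51509 to 55242 peaks, and cover more of the genome, so they meet more peaks by position alone. How far this made the embryo shares of lost peaks larger was not tested.

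The difference was largest among strong peaks. Lost peaks with scores of 200 to 300 numbered 144, of which 15.3% were found in endosperm at 3 DAP, 26.4% at 9 DAP and 31.3% to 37.5% in embryo. These shares were below those of lost peaks scoring 50 to 100, which were 34.1%, 32.0% and 40.99% to 42.1%. Gained peaks scoring 200 to 300 numbered 115, of which 90.4% were found at 3 DAP, 91.3% at 9 DAP and 76.5% to 81.7% in embryo. For gained peaks scoring 50 to 100 the shares were 58.3%, 54.5% and 50.5% to 53.1%. In each of the 5 libraries, most gained peaks of this class had an overlapping peak and most lost peaks of this class had none. Over all 6 DAP peaks the share at 3 DAP in endosperm rose from 64.9% at scores of 50 to 100 to 96.1% at 200 to 300. The rise among gained peaks thus followed the whole list and stayed below it. Over all 2 DAP peaks that share rose from 68.5% to 90.3%, whereas it fell among lost peaks.

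**Figure D4:**
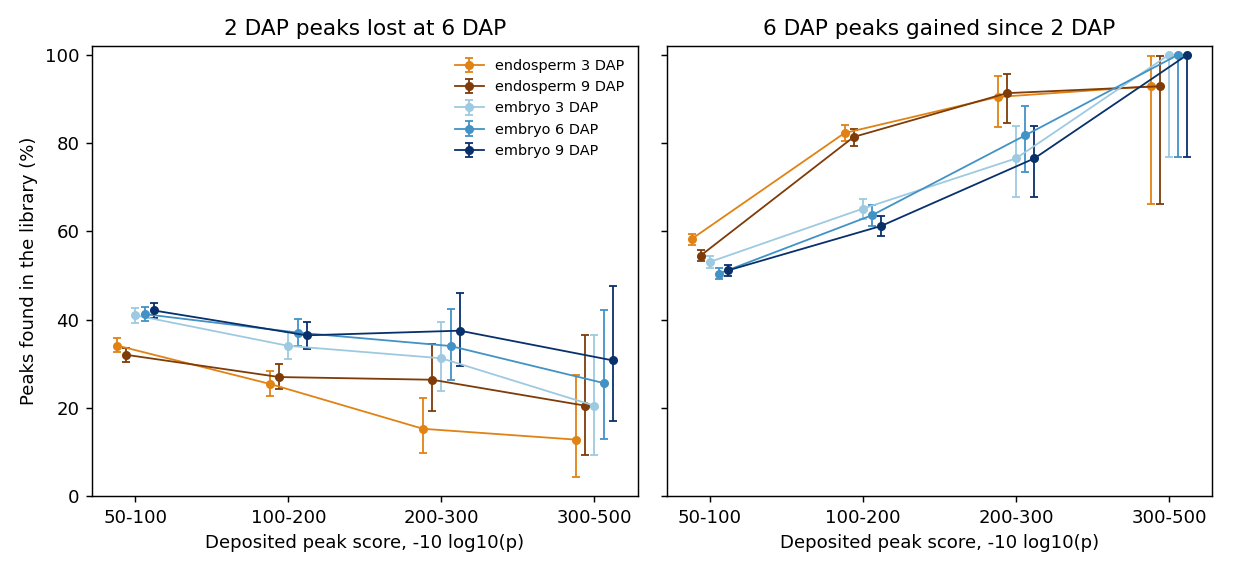
Share of lost peaks (left) and gained peaks (right) that had an overlapping peak in each of the 5 other libraries, in percent by score class, with exact 95% intervals for counting error. Shares of lost peaks in endosperm at 3 DAP go from 34.1% down to 12.8% with score, while those of gained peaks go from 58.3% up to 92.9%. Over all peaks of each list, not drawn, they go from 68.5% to 94.7% (2 DAP) and from 64.9% to 98.5% (6 DAP). The class of 500 or more, with 6 lost and 2 gained peaks, is left out.

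Followed through endosperm alone, 2626 lost peaks (56.8%) were listed at neither 3 nor 9 DAP. Another 877 (19.0%) were listed at both and missing at 6 DAP, 581 (12.6%) at 3 DAP alone and 542 (11.7%) at 9 DAP alone. Among gained peaks 3697 (47.4%) were listed at 3, 6 and 9 DAP, so that they were missing only at 2 DAP among the endosperm stages. These had a median score of 84.3, above the 62.7 of the 1751 gained peaks (22.4%) that were listed at neither 3 nor 9 DAP. Of the 2626 lost peaks listed at 2 DAP alone among the endosperm stages, 64.8% were in no embryo list, while 50.2% of the 3697 gained peaks were in all 3 embryo lists. Both shares of gained peaks were below those of kept 6 DAP peaks. Of these 82.0% were listed at both 3 and 9 DAP, and 78.9% of those were in all 3 embryo lists. Among kept 2 DAP peaks 5.27% were listed at neither 3 nor 9 DAP, and 49.9% of those were in no embryo list.

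The 2 DAP list held strong peaks that no other list had. In all, 1701 of its peaks (5.16%, 4.92 to 5.40) had no overlap in any of the 6 other lists, against 859 (2.33%, 2.18 to 2.49) for 6 DAP. Of those 1701, 505 had a score of 100 or more, 91 of 200 or more and 22 of 300 or more. The corresponding numbers at 6 DAP were 49, 1 and 0. Embryo at 9 DAP had a larger share of peaks of its own (6.59%), 395 of them with a score of 100 or more. Many such peaks at that limit were thus not particular to 2 DAP. The 22 made up 0.480% of the 2 DAP peaks with a score of 300 or more, so nearly all such peaks overlapped another list. In the 6 other libraries the number with a score of 200 or more ran from 0 to 2, and embryo at 9 DAP, which had the most peaks of its own (3643), had 2. The 2 DAP library was the shallowest of the 7 and had 4579 peaks with a score of 300 or more, fewer than all others but endosperm at 9 DAP (4345). When a gap of up to 1 kb also counted as overlap, a choice made after the values were seen, the number at 2 DAP was 48 and the highest elsewhere 2.

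The 45 lost peaks and 16 gained peaks with a score of 300 or more differed in shape as well. They were singled out after their values were seen. The lost ones were compact, with a median length of 1321 bp and a median fold enrichment over the local background, as deposited, of 10.6. Of the 45, 22 were in no other list, 13 were in embryo but in neither endosperm at 3 nor at 9 DAP, and 10 were in later endosperm. The gained ones had a median length of 3042 bp and a median fold enrichment of 4.72, and 14 of 16 were in all 5 other lists. For kept peaks of that score the medians were 1638 bp and 9.12 at 2 DAP and 1540 bp and 9.43 at 6 DAP. Of these kept peaks, 0.860% at 2 DAP were in none of the 5 other lists, and 92.5% at 6 DAP were in all 5. Presence in all 5 was thus not particular to the gained peaks. The local background came from 10 kb of the same library, which can lower the fold of long peaks.

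The highest-scoring lost peak lay on chr8:8412997-8414442, with 162 tags (23.7 RPM) and a score of 686.6, and was listed in embryo at 6 and 9 DAP. The next, on chr3:1425324-1426737, had 165 tags and was in all 3 embryo lists. On chr12:1761812-1763110 there were 142 tags, a score of 591.6 and no peak in any other list, and the nearest 6 DAP peak was 17070 bp away. The region chr11:21868984-21871432, with 190 tags and a score of 520.0, was also in the 2 DAP list alone. Of the gained peaks the highest-scoring lay on chr11:4975858-4978377, with 533 tags (73.0 RPM) and a score of 549.2, and was listed in all 5 other libraries. The nearest 2 DAP peak was 13918 bp away.

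A related group of regions had peaks at 2 and 6 DAP and in no other list. Over all 7 lists 70419 merged regions were formed, and 710 of them held peaks of exactly these 2 libraries. Whether the libraries share material cannot be told from peak lists and was not tested, which limits what such regions show. That was the highest number for any of the 6 pairs of endosperm libraries. The pair of 3 and 9 DAP had 620, that of 6 and 9 DAP had 444, 3 and 6 DAP had 334, 2 and 9 DAP had 189, and 2 and 3 DAP had 129. As a share of the regions with a peak at either stage, 2 and 6 DAP had 1.82% and 2 and 3 DAP had 0.321%. In the 710 regions the level was mostly lower at 6 DAP. The median was 8.93 RPM at 2 DAP and 6.30 at 6 DAP, and 558 of the 710 (78.6%) were higher at 2 DAP, whereas 56.2% of all regions of both stages were higher at 6 DAP.

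Members of that group with a high 2 DAP score were at lower levels at 6 DAP. In 119 of the 710 regions the 2 DAP score was 200 or more, with a median of 15.4 RPM at 2 DAP and 7.12 RPM at 6 DAP. The choice by a high 2 DAP score favours that direction, so it is a description only. In 9 regions the 6 DAP score was 200 or more, and 6 of these 9 were higher at 2 DAP. The region with the highest 2 DAP score, on chr8:14582575-14583966, had 24.1 RPM at 2 DAP and 10.8 at 6 DAP. The next, on chr6:7013504-7015081, had 34.1 and 10.1 RPM.

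The longest lost and gained regions were peaks of 7 to 8 kb with low scores. Of the 5 longest of 2 DAP only, the first lay on chr10:4567492-4575605 (8114 bp), with 988 tags (144.6 RPM) and a score of 76.6. It was missing at 6 DAP but had 160.6 RPM at 3 DAP and 48.2 at 9 DAP in endosperm, and 70.5 to 76.3 RPM in embryo. The region chr9:8735543-8743503 had 136.8 RPM at 2 DAP, 186.6 at 3 DAP and 165.3 at 9 DAP, again with no peak at 6 DAP. Next came chr5:29432707-29440492 with 116.2 RPM, chr12:2105480-2113231 with 92.5 and chr8:7678849-7686529 with 100.8. Their scores ran from 51.1 to 76.6, close to the limit of 50, so for such stretches a missing peak does not show that methylated DNA was missing.

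The 5 longest of 6 DAP only were of the same kind. On chr5:18596158-18604541 (8384 bp) there were 1276 tags (174.7 RPM) at 6 DAP, 97.4 RPM at 3 DAP and 146.9 at 9 DAP, and no peak at 2 DAP. The region chr9:13337919-13345966 had 153.5 RPM, chr2:19523230-19531266 had 169.0, chr12:22150467-22158258 had 130.9 and chr1:16940762-16948461 had 169.4. Their scores ran from 71.6 to 101.2. All 10 longest regions had a peak in at least 3 of the 5 other libraries. By tag level the 5 highest regions of each class also included, of 2 DAP only, chr6:21623230-21630412 (135.4 RPM), chr3:20728958-20736356 (127.2) and chr11:20930109-20936435 (127.0). Of 6 DAP only they included chr4:12123398-12129995 (159.9) and chr3:17180609-17187309 (155.3).

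Lost and gained peaks were scattered over all chromosomes at nearly even rates. The lost share ran from 12.0% (10.8 to 13.3) on chromosome 5 to 14.9% (13.5 to 16.3) on chromosome 6. Gained shares lay between 19.7% (18.5 to 21.0) on chromosome 1 and 22.7% (21.2 to 24.2) on chromosome 5. On chromosome 5, with the lowest lost and the highest gained share, there were 2.20 gained peaks for each lost one, and on the 11 others 1.51 to 1.85. Covered length was higher at 6 DAP on 11 of the 12 chromosomes, by ratios up to 1.045, and on chromosome 3 the ratio was 0.992. The files also list sequences named Un, with 5 peaks at 2 DAP and 7 at 6 DAP, and Sy, with 43 and 45.

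Along the chromosomes the 2 lists had nearly the same profile. In 367 complete bins of 1 Mb the 6 DAP peaks covered more than the 2 DAP peaks in 218 (59.4%) and less in 149, and the ratio of 6 over 2 DAP ran from 0.773 to 1.196. With equal numbers of peaks 19.9% of bins had more at 6 DAP, so this balance also rests on the longer list. Bins were divided into 5 groups by their mean coverage in the 3 embryo lists, which took no part in naming peaks lost or gained. From the embryo-poorest to the embryo-richest group the ratio was 1.01, 1.01, 1.02, 1.02 and 1.04. In the poorest group 79.7 kb per Mb was covered at 2 DAP and 80.8 at 6 DAP, and in the richest 177.7 and 184.6. Lost shares were 15.0% (14.0 to 16.1) in the poorest and 12.6% (11.9 to 13.4) in the richest group, and gained shares 22.6% (21.5 to 23.8) and 20.4% (19.5 to 21.2). By distance from the chromosome ends the lost share was 14.3% within 2 Mb and 13.9% beyond 10 Mb, inside each other's intervals.

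**Figure D5:**
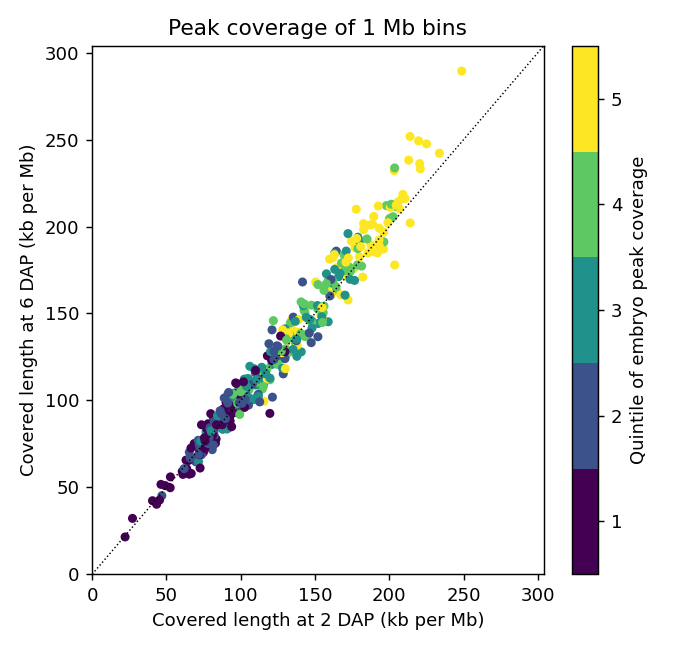
Covered length of the 367 bins of 1 Mb at 2 DAP (x) and 6 DAP (y), in kb per Mb, coloured by group of embryo peak coverage from 1 (poorest) to 5 (richest). The points follow the dotted line of equal coverage, with 218 above it and 149 below.

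Single bins differed by more than these group means. The largest gain was on chr3:19000001-20000000, the bin with 248.7 kb covered at 2 DAP and 289.4 kb at 6 DAP, where 38 peaks were gained and 10 lost. The region chr1:16000001-17000000 went from 214.0 to 251.8 kb, and chr11:11000001-12000000 from 177.8 to 209.9 kb. Coverage was lower at 6 DAP by the most on chr1:23000001-24000000, with 119.6 kb at 2 DAP and 92.5 kb at 6 DAP, 20 peaks lost and 14 gained. The region chr9:4000001-5000000 had 203.6 and 177.9 kb, and chr11:19000001-20000000 had 121.3 and 101.9 kb. The 3 bins of gain and 1 of the 3 bins of loss were in the embryo-richest group. The bins were chosen by the difference in kb, which favours bins with much coverage, so this is a description only. By ratio the largest gain, 1.196, was on chr11:17000001-18000000, outside that group.

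Regions of 2 DAP only made up 11.5% of all merged regions and those of 6 DAP only 19.4%, and most lay singly. In the order of merged regions, 3655 regions of 2 DAP only had a region of another class on both sides, and 414 runs of 2, 41 of 3 and 5 of 4 regions followed each other. For 6 DAP only the numbers were 5133 single regions, 930 runs of 2, 199 of 3, 39 of 4, 10 of 5 and 1 of 6. That longest run lay on chr5:10521369-10549179, over 27.8 kb. The nearest 6 DAP peak was a median of 2324 bp from a lost peak, and 6.20% of lost peaks had one within 200 bp. For gained peaks the median distance to a 2 DAP peak was 2475.5 bp, and 6.06% were within 200 bp.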

How the data were processed

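MeDIP-seq libraries of ZH-11 endosperm at 2 and 6 DAP were compared, with the 5 other ZH-11 libraries as context. The tools named are Bowtie2 and MACS, per the submitters' processing notes. Per the file headers, MACS 1.4.2 called peaks on each library alone, with no control, a local background over 10 kb, fragments of 200 bp, tags of 41 bp, 1 tag per position, an effective genome of 360 Mb and p-values limited to 1e-05. Without a control, background came from the enriched library itself. The deposited tag counts are whole reads per peak, not scaled. The score (-10 log10 p) and the fold enrichment, a ratio, are the authors' deposited values for single peaks and were used to describe and filter within lists. Genome build and alignment settings were not given in the sources used here.

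Overlap, merging and coverage were computed in Python 3.11.15 with numpy 2.4.6, pandas 2.3.3 and scipy 1.17.1, and checked on simulated lists. RPM is a library's tags in peaks per 1000000 filtered tags. A table of RefSeq genes was not used, since its assembly could not be matched to the files. Alternatives were score, fold and equal-number filters, overlap, merging and scaling rules and bin size. Filters were applied to the 2 lists compared, not to the lists searched. A peak could then count as lost or gained because its partner was filtered out. Named regions were the 5 longest and the 5 highest in RPM of each stage alone, the 5 largest and 5 smallest ratios, and the 3 bins of largest gain and of largest loss. The comparison and its measures were chosen with earlier results of these data known.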

Additional observations from a re-analysis of the deposited data

How the results depend on the processing

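Of 98 values recomputed under 13 alternatives, 24 kept their place, 69 moved and 5 reversed. No paired analysis was possible because each stage was 1 library. A value counted as moved when it left its 95% interval, a count when it changed by over 1.5 times, and a ratio or difference at any change in 3 digits. The order of the lost and gained shares in the other libraries held throughout: gained peaks were found more often than lost peaks in endosperm at 3 and 9 DAP and in embryo at 6 DAP, the libraries recomputed, under each alternative run.

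At a score of 100 or more in both lists, the lost share was 15.9% and the gained share 25.8%, with 1.87 gained per lost peak, a peak number ratio of 1.15, a covered-length ratio of 1.06 and a median length difference of -120 bp. There were 17167 regions of both stages, 173 higher and 387 lower at 6 DAP (2.24 lower per higher), and a median log2 ratio of 0.0563. Lost and gained peaks were found in endosperm at 3 DAP in 50.7% and 88.3%, at 9 DAP in 52.7% and 87.6%, and in embryo at 6 DAP in 53.1% and 74.3%. Bins with more length at 6 DAP were 66.2%, and peaks met by 2 or more were 2.22% at 2 DAP and 0.669% at 6 DAP.

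Where the fold enrichment was at least 5, the corresponding values were 17.6% lost and 28.04% gained, 1.86 gained per lost, ratios of 1.17 and 1.09, -87 bp, 235 higher regions, 2.62 lower per higher and a median log2 ratio of 0.0344. The shares found were 41.3% and 72.6%, 41.2% and 71.2%, and 48.04% and 62.5%, the bins 81.5% and the peaks met by 2 or more 2.63% and 0.845%.

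With equal numbers of highest-scoring peaks 18.4% were lost and 17.0% gained. Gained per lost peak reversed to 0.922, the covered-length ratio to 0.9496 and the bins with more at 6 DAP to 19.9%, while the peak number ratio became 1 by construction. This setting removes 6 DAP peaks alone. The length difference was -69 bp, lower per higher regions 1.76, the median log2 ratio 0.0724, the shares found 38.02% and 69.8%, 36.7% and 66.9%, and 44.8% and 56.8%, and the peaks met by 2 or more 2.94% and 1.58%.

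Requiring 50% of a peak to be covered gave 16.6% lost, 22.5% gained and 1.52 gained per lost peak, and a gap of up to 200 bp gave 13.2% and 19.9%. With 50% coverage in the searched lists, lost peaks were found in 28.0% (endosperm 3 DAP), 27.2% (9 DAP) and 34.9% (embryo 6 DAP), and gained peaks in 50.8% of the last. Scaling to 1000000 tags in peaks reversed the median log2 ratio to -0.0705, with 213 higher regions and 5.19 lower per higher. The same scaling, added for this value after seeing the data, reversed the median log2 ratio of tags per kb in matched pairs to -0.0219. Centring gave 3.09 lower per higher. RPM per kb gave 42 higher and 52 lower regions, 1.24 lower per higher and a median of 0.11. Counting gaps of up to 1 kb as overlap, chosen after seeing the data, left 48 of the 91 strong peaks of 2 DAP alone. With the 10000 highest-scoring peaks of each list, also chosen after, the number was 96, and at most 3 elsewhere. How far depth affects the calls of weak peaks was not tested, and the smallest peaks listed held 23 and 24 tags.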
